A study of Mus musculus with 10 samples.

Results

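Genes for 10 surface receptors and ligands that B cells use in contact with T cells, or to sense survival cytokines, were followed through RNA-seq of germinal center (GC) B cells that had or had not lost the transcription factor ZBTB38. They are Cd40, Icosl, Cd80, Cd86, Cd83, Cd274, Pdcd1lg2, Tnfrsf13b, Tnfrsf13c and Slamf1. The rule that picks them matches gene names and uses no measured value, and all 10 were found among the 22380 genes of the files. The estimated counts and TPM (a level scaled for transcript length and library depth) of all transcripts of a gene were summed. Mice on the C57Bl6/N strain had been immunized with NP-OVA, a hapten coupled to ovalbumin, in an aluminum adjuvant, and GC B cells that bound the hapten (GL7+IgD-) were sorted 2 weeks later, as the study's methods state; the sample labels give the treatment as untreated. Each of the 10 libraries is a separate mouse. ZBTB38 WT mice (n = 2) carried Zbtb38fl/fl without Cre, ZBTB38 HET mice (n = 2) carried Zbtb38fl/+ x Vav-Cre, and ZBTB38 KO mice (n = 6) carried Zbtb38fl/fl x Vav-Cre. All mice therefore held at least 1 floxed allele, and it descends from a single founder in which exon 3, with the whole coding sequence, lies between loxP sites. Vav-Cre is active in blood cells in general, so T cells and myeloid cells of HET and KO mice were recombined as well, and the WT mice differed from both by the lack of Cre. Ages were not given in the sources used here.

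GC B cells take up antigen, present it to T follicular helper cells and depend on the signals they get back. CD40 receives CD40 ligand from the T cell, ICOSL engages ICOS on it, and CD80 and CD86 engage CD28 and CTLA-4. CD83 steadies MHC class II and CD86 at the cell surface and, with CD86, marks the light zone, where this contact takes place. PD-L1 (Cd274) and PD-L2 (Pdcd1lg2) bind PD-1, which T follicular helper cells carry at high levels. BAFF-R (Tnfrsf13c) and TACI (Tnfrsf13b) bind the survival cytokine BAFF, and TACI also binds APRIL. SLAMF1 binds itself on the opposite cell and signals through the adaptor SAP.

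Zbtb38 itself was measured first. Its mean was 156.8 ± 7.02 CPM (counts scaled to library size, SD, n = 2) in WT, 111.6 ± 8.23 CPM (SD, n = 2) in HET and 31.7 ± 10.8 CPM (SD, n = 6) in KO libraries, a log2 fold change of -2.31 ± 0.27 (SE) for KO over WT (edgeR quasi-likelihood test, Benjamini-Hochberg adjusted p = 0.0734). On the TPM scale, Zbtb38 was at 63.5 and 63.3 in WT, 49.6 in both HET libraries and 46.1 in KO 2. The other KO libraries were between 17.5 and 23.7 TPM. These values sum all transcripts of the gene, and reads of the floxed exon were not counted separately. The values therefore do not measure how complete the deletion was. The study reports that transcripts within the floxed exon were fully lost in KO mice. The 10 libraries held between 26612431 and 41059082 estimated counts. Genes typical of GC B cells were present in all of them, with Bcl6, the transcription factor that GC B cells need, between 168.8 and 294.1 CPM and lowest in KO 6. The libraries were not equally alike. KO 6 had a median correlation with the other libraries of 0.908 and KO 1 of 0.929, against 0.961 to 0.967 for the remaining 8. KO 6 also had the highest summed level of 8 naive and memory B cell genes, at 1590 CPM, against 657 to 1101 CPM in the other KO libraries, 938 and 1069 CPM in WT and 495 and 516 CPM in HET. Because these are bulk libraries, fewer cells of a type and less RNA per cell cannot be told apart.

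ZBTB38 binds methylated CpG sites, so the CpG content of the promoters is shown as context, although methylation was not measured here. RefSeq windows of 300 bases (250 before to 50 after the start, GRCm38.p6) were matched for 7 of the 10 genes: Icosl, Cd274, Tnfrsf13c, Tnfrsf13b, Slamf1, Cd80 and Pdcd1lg2. The dinucleotide CG, which reads the same on both strands, occurred 26 times in the Icosl window, 15 times for Cd274, 12 for Tnfrsf13c, 8 for Tnfrsf13b, 4 for Slamf1 and 3 each for Cd80 and Pdcd1lg2. The median over 32851 windows of that length was 7. The Icosl window was at the 84.5th percentile of them and the Cd80 and Pdcd1lg2 windows at the 31.4th. The Cd80 window lies wholly inside the annotated gene span, which begins upstream at chr16:38455561, so it does not cover the start of that span. The first 180 bases of the richest and of the 2 poorest windows follow, 5′ to 3′ on the plus strand that all 3 genes use, with each CG in capitals. They lie at chr10:78069118-78069297 for Icosl, chr16:38458683-38458862 for Cd80 and chr19:29410669-29410848 for Pdcd1lg2, and hold 15, 2 and 1 CG.
Icosl: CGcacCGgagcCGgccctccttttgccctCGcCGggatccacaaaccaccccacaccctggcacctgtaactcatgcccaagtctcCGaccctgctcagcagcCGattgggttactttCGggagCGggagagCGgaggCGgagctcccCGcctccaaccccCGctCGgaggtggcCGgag
Cd80: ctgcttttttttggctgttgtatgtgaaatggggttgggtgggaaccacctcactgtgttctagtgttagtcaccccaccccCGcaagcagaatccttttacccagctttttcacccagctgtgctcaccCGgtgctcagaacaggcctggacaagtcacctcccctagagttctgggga
Pdcd1lg2: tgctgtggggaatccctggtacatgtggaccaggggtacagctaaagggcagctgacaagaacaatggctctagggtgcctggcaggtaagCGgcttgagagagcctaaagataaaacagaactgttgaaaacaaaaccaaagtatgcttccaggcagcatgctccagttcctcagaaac
These are reference letters only, and a count of CG says nothing of whether a site is methylated or bound.

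The 10 genes covered a wide range of levels. Tnfrsf13c was the highest, at 776.8 ± 74.5 TPM (SD, n = 10 libraries), in the 99.2nd percentile of all genes, and its mean was 311-fold that of Pdcd1lg2, the lowest. Cd83 followed at 298.9 ± 48.7 TPM. Tnfrsf13b at 155.9 ± 22.0 TPM, Cd40 at 138.9 ± 20.5 TPM and Cd86 at 132.3 ± 24.9 TPM came next. The ranges over libraries separated Tnfrsf13c from Cd83 and Cd83 from Tnfrsf13b, whereas Tnfrsf13b, Cd40 and Cd86 overlapped and have no order among them. Slamf1 at 53.4 ± 12.2 TPM and Icosl at 47.6 ± 10.8 TPM also overlapped with each other. Both lay well above the last 3, Cd274 at 5.16 ± 2.51 TPM, Cd80 at 2.55 ± 1.33 TPM and Pdcd1lg2 at 2.50 ± 0.92 TPM, whose ranges overlapped. Within the B7 pair and the BAFF receptor pair, one gene carried most of the RNA. The TPM of Cd86 was between 23.6 and 115.1 times that of Cd80 in every library, and Tnfrsf13c was between 3.92 and 6.18 times Tnfrsf13b. The PD-1 ligands had no such order, with Cd274 between 0.875 and 2.67 times Pdcd1lg2 in 9 of the 10 libraries.

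**Figure D1:**
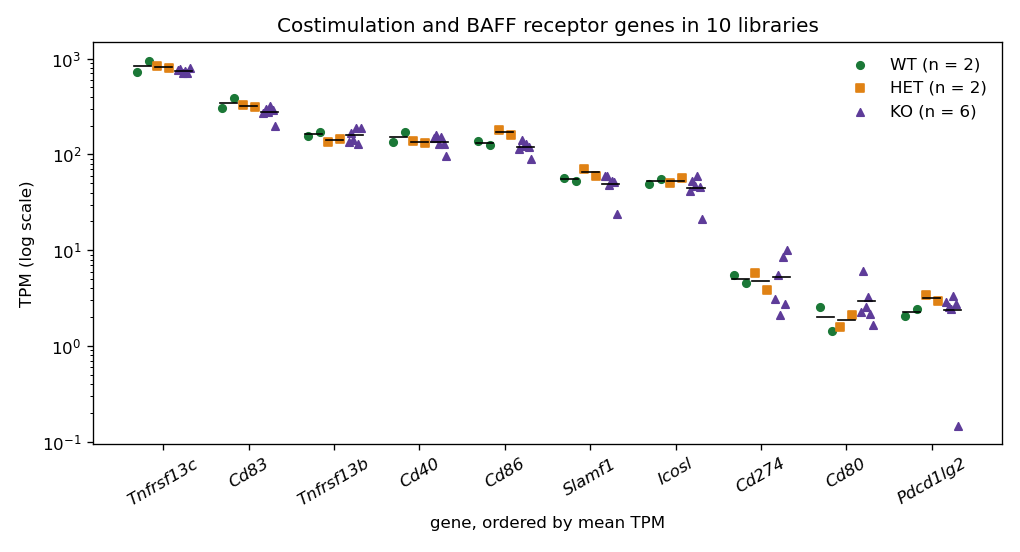
Level of each of the 10 genes in TPM on a log axis, ordered by mean, with 1 symbol per library for WT (n = 2), HET (n = 2) and KO (n = 6) and a black line at each group mean. Tnfrsf13c sits at the top in all libraries, Cd274, Cd80 and Pdcd1lg2 lie lowest, and the lowest point of the plot is Pdcd1lg2 in KO 6 at 0.15 TPM.

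The first comparison asked whether GC B cells without ZBTB38 differed from WT cells. None of the 10 genes passed the test. All 10 were tested, none had an adjusted p under 0.1 and none had an unadjusted p under 0.05, where 0.00704% and 2.19% of the 14203 genes tested did (edgeR quasi-likelihood test, adjusted p = 0.999 for each of the 10). The WT and KO libraries overlapped for all 10, and did not overlap for 6.58% of all genes. The log2 fold changes of KO over WT had a median of 0.03, with 5 above 0, against a median of 0.01 and 51.8% above 0 over all genes tested. For 7 of the 10 the 95% interval lay within a 2-fold change either way; the exceptions were Cd80, Cd274 and Pdcd1lg2, the 3 genes with the lowest levels.

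**Figure D2:**
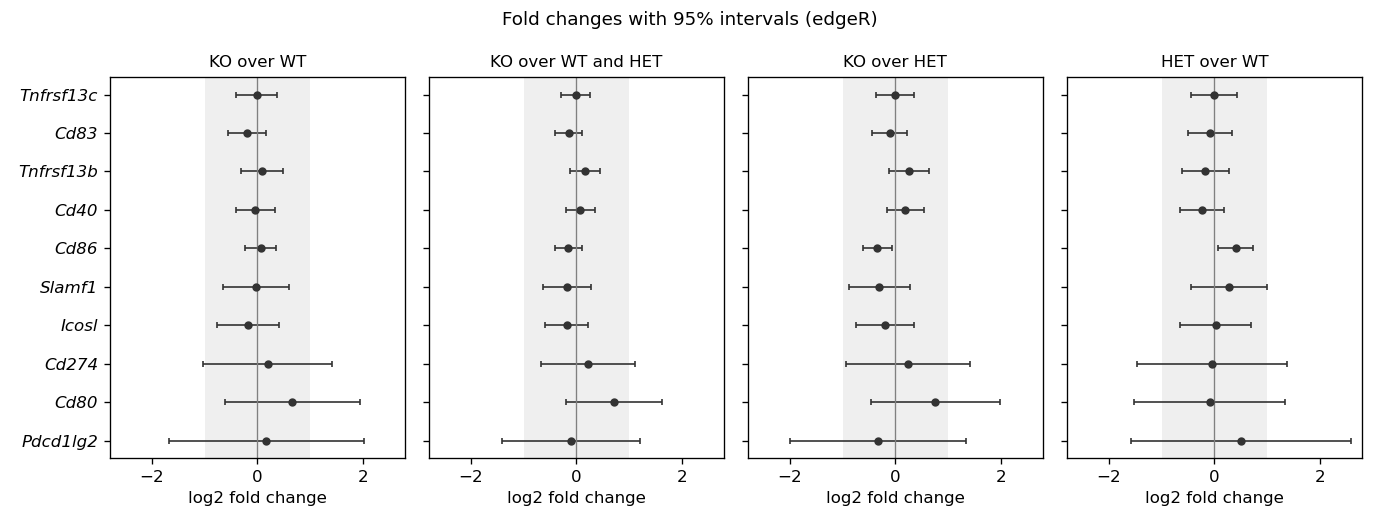
Log2 fold change of each gene with its 95% interval (edgeR) in 4 comparisons, with the grey band marking 2-fold either way. The intervals include 0 in all panels for all genes but Cd86 in KO over HET and in HET over WT, and the widest belong to Cd274, Cd80 and Pdcd1lg2.

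Cd40 (ENSMUSG00000017652.16, chr2:165055627-165072948, plus strand, GRCm38), the receptor through which T cells sustain the GC, was at 121.2 and 146.7 CPM in WT, 116.4 and 112.0 CPM in HET and 166.9, 129.97, 128.9, 125.8, 119.3 and 111.8 CPM in KO 1 to 6. KO 1 lay above all other libraries, KO 6 was level with the lowest control, and the other KO libraries were within the span of the controls. This placement held for CPM only. On the TPM scale, KO 6 was the lowest library at 96.9 TPM, against 127.1 to 171.8 TPM in the others. KO 1, at 147.3 TPM, lay below WT 2 and KO 2 on that scale. The log2 fold change of KO over WT was -0.04 ± 0.17 (SE), with a 95% interval from -0.41 to 0.33. Icosl (ENSMUSG00000000732.9, chr10:78069302-78083913, plus strand), the ligand for ICOS, was at 90.2 and 98.1 CPM in WT, 90.6 and 100.6 CPM in HET and 93.4, 89.5, 90.3, 98.0, 87.7 and 42.3 CPM in KO 1 to 6. All libraries but KO 6 lay within 87.7 and 100.6 CPM. KO over WT was -0.17 ± 0.26 (SE) on the log2 scale, and -0.04 ± 0.13 (SE) without KO 6, so the width of the interval rested largely on that library.

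Cd86 (ENSMUSG00000022901.13, chr16:36603869-36666081, minus strand) and Cd80 (ENSMUSG00000075122.4, chr16:38455561-38496335, plus strand), the pair of B7 ligands, lie on the same chromosome. Cd86 was at 172.4 and 149.1 CPM in WT, 229.2 and 195.6 CPM in HET and 183.6, 178.4, 170.1, 162.3, 161.4 and 152.0 CPM in KO 1 to 6. WT and KO overlapped, and both HET libraries lay above all others. KO over WT was 0.06 ± 0.13 (SE) on the log2 scale, with a 95% interval from -0.22 to 0.35. Cd80 was at 2.7 and 1.5 CPM in WT, 1.7 and 2.3 CPM in HET and 3.2, 6.2, 3.0, 3.3, 2.5 and 2.1 CPM in KO 1 to 6. KO 2 stood above the rest, KO 1 to 4 lay above every control library, and KO 5 and KO 6 lay in the range of the controls. KO over WT was 0.67 ± 0.58 (SE) on the log2 scale, with a 95% interval from -0.62 to 1.95, and 0.40 without KO 2. At this level the data could show neither an increase nor its absence.

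Cd83 (ENSMUSG00000015396.4, chr13:43784775-43803132, plus strand) was at 500.6 and 622.7 CPM in WT, 552.0 and 510.5 CPM in HET and 585.4, 471.4, 503.1, 504.1, 516.4 and 381.8 CPM in KO 1 to 6. The groups overlapped, with KO 6 the lowest library. The log2 fold change of KO over WT was -0.19 ± 0.16 (SE), with a 95% interval from -0.55 to 0.17. The ratio of Cd83 to Cd86, the pair of light zone markers, was 2.18 and 3.10 in WT, 1.82 and 1.97 in HET and between 2.09 and 2.50 in KO on the TPM scale.

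Cd274 (ENSMUSG00000016496.7, chr19:29367455-29388095, plus strand) and Pdcd1lg2 (ENSMUSG00000016498.9, chr19:29410919-29471161, plus strand), the PD-1 ligands, are neighbours with 22823 bases between them. Cd274 was at 13.8 and 11.1 CPM in WT, 14.6 and 9.5 CPM in HET and 9.9, 13.1, 5.9, 20.1, 7.2 and 29.3 CPM in KO 1 to 6. The KO libraries spread to both sides of the controls. Its log2 fold change was 0.20 ± 0.55 (SE), and -0.14 without KO 6. Pdcd1lg2 was at 2.2 and 2.5 CPM in WT, 3.6 and 3.0 CPM in HET and 3.9, 2.6, 2.8, 3.3, 3.0 and 0.2 CPM in KO 1 to 6. It was nearly absent from KO 6 and similar elsewhere. Its log2 fold change was 0.18 ± 0.84 (SE), and 0.42 ± 0.44 (SE) without KO 6. The 2 neighbours moved apart in KO 6, where the TPM of Cd274 was 68.3 times that of Pdcd1lg2, against 0.875 to 2.67 times in the other 9 libraries.

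Tnfrsf13c (ENSMUSG00000068105.11, chr15:82221743-82224369, minus strand), which encodes the BAFF receptor, was at 753.6 and 949.8 CPM in WT, 890.0 and 809.6 CPM in HET and 1021.5, 754.4, 808.4, 719.5, 760.1 and 1007.8 CPM in KO 1 to 6. The libraries overlapped fully, and KO over WT was -0.01 ± 0.17 (SE) on the log2 scale, with a 95% interval from -0.40 to 0.37. Tnfrsf13b (ENSMUSG00000010142.12, chr11:61126755-61149372, plus strand), which encodes TACI, was at 247.3 and 277.9 CPM in WT, 229.1 and 237.4 CPM in HET and 285.2, 255.1, 262.0, 284.3, 219.3 and 366.7 CPM in KO 1 to 6. KO 6 was the highest library. KO over WT was 0.09 ± 0.18 (SE) on the log2 scale, and -0.01 without KO 6. The third receptor of the family, Tnfrsf17 (BCMA, typical of plasma cells), was between 0.04 and 1.83 CPM in 8 of the other libraries, listed at 0 in HET 1 and at 7.06 CPM in KO 6.

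Slamf1 (ENSMUSG00000015316.11, chr1:171767127-171801184, plus strand) was at 102.1 and 93.8 CPM in WT, 130.7 and 106.9 CPM in HET and 139.2, 103.1, 96.4, 89.8, 98.9 and 51.0 CPM in KO 1 to 6. KO 1 and HET 1 were the highest and KO 6 the lowest. The log2 fold change of KO over WT was -0.02 ± 0.28 (SE), and 0.11 ± 0.18 (SE) without KO 6.

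KO 6 was the library farthest from the median of the 10 for 6 of the 10 genes. It was the highest for Cd274 and Tnfrsf13b and the lowest for 5 genes, among them Icosl, Slamf1 and Pdcd1lg2. KO 1 was the highest for 4. How often KO 6 or KO 1 was the extreme library over all genes was not computed. Both also stood apart over all genes, with median correlations of 0.908 and 0.929, so these counts are not a result about the 10 genes. In KO 6, 7 of the 8 naive and memory B cell genes were at their highest level as well, and the part of this in the values of the 10 genes was not tested. Over all 10 libraries, the SD of log2(CPM + 1) was 0.18 for Cd40 and Cd86, 0.19 for Tnfrsf13c and Cd83 and 0.21 for Tnfrsf13b, below the median of 0.26 over 8587 genes with a mean of at least 10 CPM. Icosl at 0.36, Slamf1 at 0.38 and Cd274 at 0.63 were above it, the last in the 95.2nd percentile.

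**Figure D3:**
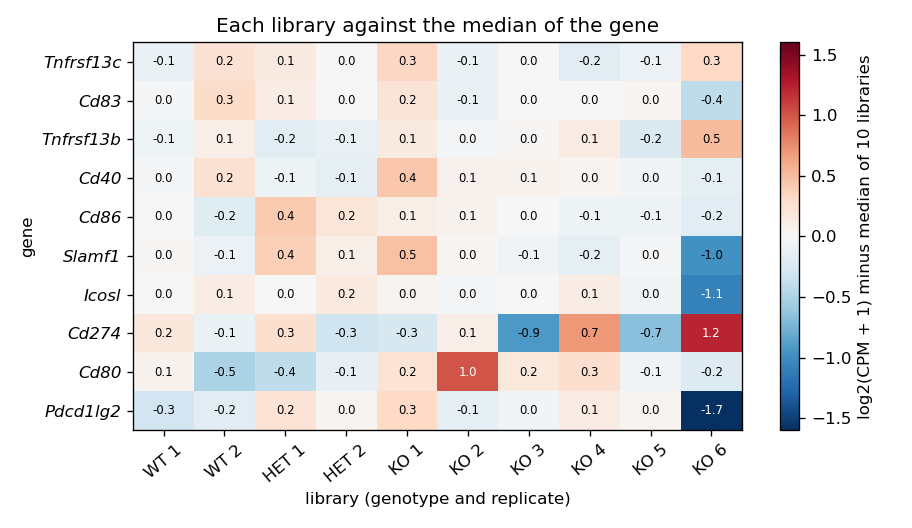
Log2(CPM + 1) of each gene in each library minus the median of that gene over the 10 libraries, with red for higher and blue for lower. The KO 6 column holds most of the strongest colours, blue for Icosl, Slamf1 and Pdcd1lg2 and red for Cd274, and Cd80 in KO 2 is red as well. The rows of Cd40, Cd86, Tnfrsf13c and Cd83 stay pale in most libraries.

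The second comparison set the KO libraries against WT and HET together (n = 4 against n = 6), which gives more control libraries. Again none of the 10 genes passed the test. Of the 13347 genes tested, 0.00749% had an adjusted p under 0.1, 6.3% had an unadjusted p under 0.05 and 1.52% had libraries that did not overlap, and the 10 genes gave 0 in each case. Their log2 fold changes of KO over controls ran from -0.18 ± 0.19 (SE) for Icosl to 0.71 ± 0.42 (SE) for Cd80, with a median of -0.05 against 0.02 over all genes tested. The lowest adjusted p was 0.744, for Cd80, whose log2 fold change was 0.45 without KO 2. For Cd40, Cd83, Cd86, Tnfrsf13b and Tnfrsf13c the fold changes were 0.07, -0.15, -0.15, 0.17 and -0.01, each with an SE of at most 0.13. The 95% interval lay within a 2-fold change for the same 7 genes as before.

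The remaining comparisons concerned HET mice, which share Vav-Cre with KO and keep 1 intact allele. Here Cd86 was the one gene of the 10 that stood apart, and it did not pass adjustment over all genes. Its mean was 212.4 ± 23.8 CPM (SD, n = 2) in HET, 160.8 ± 16.5 CPM (SD, n = 2) in WT and 168.0 ± 11.7 CPM (SD, n = 6) in KO. KO over HET was -0.34 ± 0.12 (SE) on the log2 scale, with a 95% interval from -0.61 to -0.07 (edgeR, adjusted p = 0.416). HET over WT was 0.40 ± 0.15 (SE), with an interval from 0.07 to 0.74 (edgeR, adjusted p = 0.716). Both had an unadjusted p under 0.05, and they share the HET libraries. The unadjusted p of KO over HET was under 0.05 with and without KO 6 (-0.31 ± 0.12, SE, without it), but not without HET 1. The other 9 genes had no unadjusted p under 0.05 in either comparison with all libraries. In KO over HET, 1 of 10 genes is 10%, where 10.2% of 14354 genes had an unadjusted p under 0.05, 13.9% had libraries that did not overlap and 0.00697% had an adjusted p under 0.1. In HET over WT, the libraries did not overlap for 5 of the 10 genes (Cd40, Cd86, Pdcd1lg2, Tnfrsf13b and Slamf1), where that held for 48% of all genes, while 6.42% had an unadjusted p under 0.05 and again 0.00697% an adjusted p under 0.1. The shares among the 10 genes were near those of all genes. Hnrnpll, named after its values were seen, was the gene with an adjusted p under 0.1 in both.

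The HET libraries also differed from WT in marker genes, as values beside Cd86. The summed level of 11 light zone genes, without Cd86 or Cd83, was 716 and 753 CPM in HET, 854 and 887 CPM in WT and between 725 and 942 CPM in KO. All 8 naive and memory B cell genes had their lowest group mean in HET. Of 12 myeloid genes, 11 had a log2 fold change below 0 in HET over WT, 8 with an unadjusted p under 0.05 and 0 passing adjustment. With Lyz2 the most abundant, they summed to 186 and 169 CPM in HET, against 687 and 560 CPM in WT and between 179 and 860 CPM in KO. For 10 T cell genes, of which Lck was the most abundant, the sums were 191 and 197 CPM in HET, 273 CPM in both WT libraries and between 186 and 271 CPM in KO. Lck made up most of each of these sums, at 160.3 and 167.5 CPM in WT and 171.1 and 164.6 CPM in HET. The sums therefore say little of the other T cell genes. Of the 10, 9 had a log2 fold change below 0 in HET over WT, with a median of -2.34 over the 10 and 0 passing adjustment. Of the myeloid and T cell genes, 0 were below 1 CPM in every library. The part of these differences in the level of Cd86 was not tested.

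**Figure D4:**
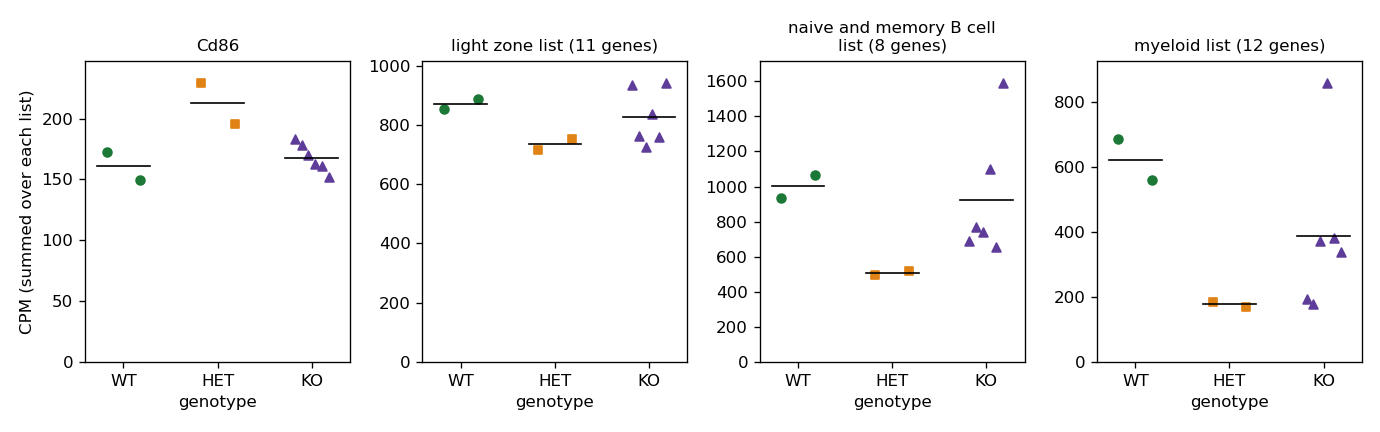
CPM of Cd86 and summed CPM of the light zone, naive and memory B cell, and myeloid gene lists, with 1 symbol per library (circles WT, squares HET, triangles KO) and a line at each group mean. Both HET libraries are highest for Cd86, at 229.2 and 195.6 CPM, and lowest for the naive and memory B cell list, at 495 and 516 CPM.

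For 5 of the 10 genes the files list more than 1 transcript, and their shares are given as a description. Cd40 had 6, of which ENSMUST00000073707.8 gave 34.8% of the TPM, between 26.5% and 39.9% by library, and ENSMUST00000081310.10 gave 25.5%. Cd86 had 2, and the longer one, ENSMUST00000089620.10, gave 69.3%, between 66.1% and 66.9% in WT, 67.6% and 67.7% in HET and 66.2% and 80.7% in KO, with KO 6 the highest. For Icosl, ENSMUST00000105393.2 gave 86.1%, with 90.5% and 92.6% in WT, 86.8% and 87.2% in HET and between 76.5% and 90.5% in KO. The main transcript of Tnfrsf13c gave 70.5% and that of Tnfrsf13b 94.7%. These shares are estimates from reads that transcripts have in part in common, and none was tested.

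**Figure D5:**
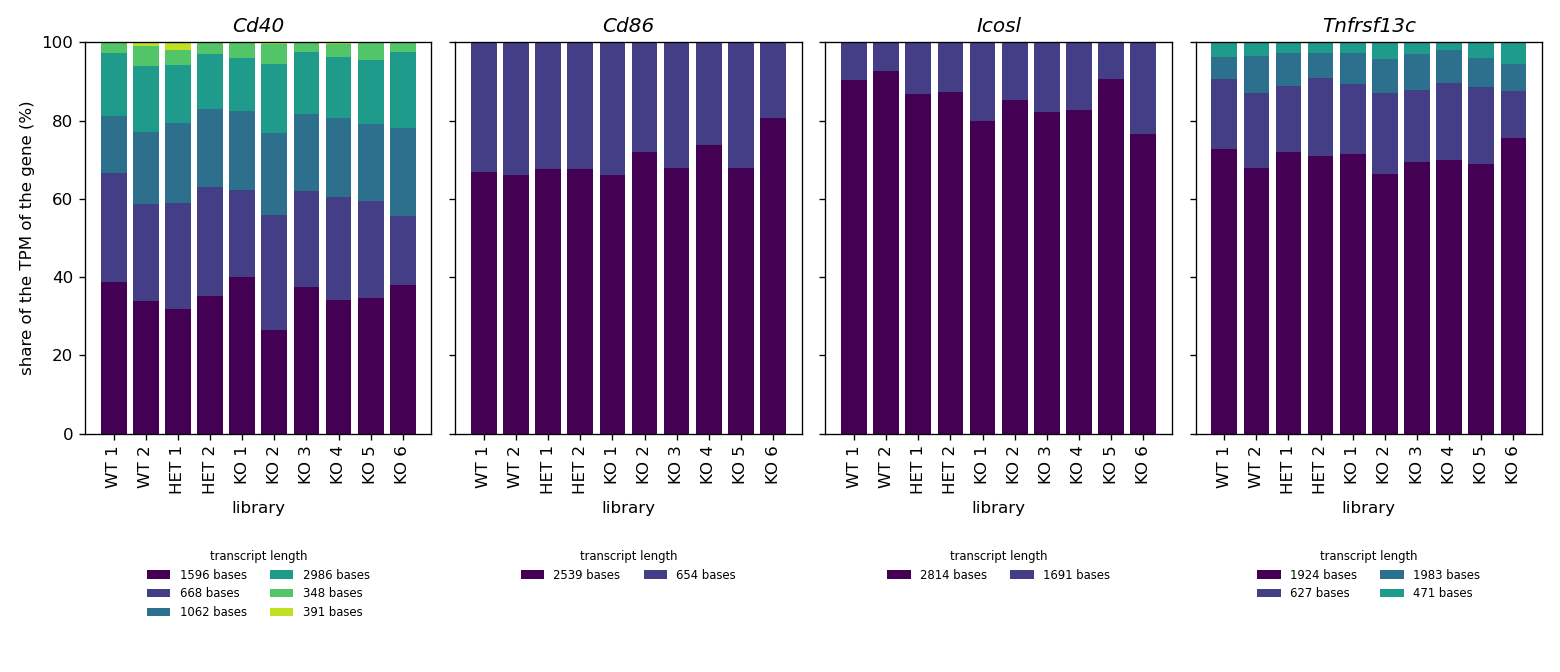
Share of the TPM of Cd40, Cd86, Icosl and Tnfrsf13c that each annotated transcript takes in each library, stacked to 100% and coloured by transcript, with transcript lengths in the key. In the Cd86 panel the transcript of 654 bases takes between 19.3% and 33.9%, with the lowest share in KO 6, and in the Icosl panel the transcript of 2814 bases spans 76.5% to 90.5% within KO.

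The partners of these genes on T cells, and BAFF and APRIL, were low in the sorted B cells. The 8 T cell partners (Cd40lg, Icos, Cd28, Ctla4, Pdcd1, Sh2d1a, Il21 and Il4) summed to 44.1 and 46.0 CPM in WT, 8.25 and 9.19 CPM in HET and between 10.96 and 32.2 CPM in KO. Of the 8, 0 passed adjustment in any comparison, and 2 had an unadjusted p under 0.05 in KO over WT, both lower in KO. In that comparison, 2.19% of all genes tested had an unadjusted p under 0.05. Pdcd1, which encodes PD-1, was at 11.8 and 17.0 CPM in WT and between 4.37 and 7.72 CPM in KO, -1.35 ± 0.34 (SE) on the log2 scale (edgeR, adjusted p = 0.999). Icos was at 5.81 and 9.68 CPM in WT and between 1.27 and 4.96 CPM in KO, -1.44 ± 0.57 (SE). In HET, Pdcd1 was at 1.53 and 2.68 CPM and Icos at 2.01 and 1.52 CPM, so the KO libraries lay between WT and HET for Pdcd1. Of the 10 genes of the T cell list, 9 had a log2 fold change below 0 in KO over WT, and 3 of them (Cd3e, Cd3g and Trac) an unadjusted p under 0.05. Against HET, 9 of the 10 were above 0 in KO. With WT and HET together the log2 fold changes were -0.54 ± 0.55 (SE) for Pdcd1 and -0.74 ± 0.58 (SE) for Icos. Cd40lg, Cd28, Ctla4, Sh2d1a, Il21 and Il4 had no unadjusted p under 0.05 in KO over WT or against both controls. Their levels were at most 13.5 CPM, for Sh2d1a in KO 6. In KO over HET, 2 of the 8 partners had an unadjusted p under 0.05 (Cd40lg and Pdcd1, both higher in KO). In HET over WT, 4 of the 8 did (Cd40lg, Icos, Cd28 and Pdcd1, all lower in HET). Of all genes tested, 10.2% and 6.42% did in these 2 comparisons. Tnfsf13b (BAFF) was at most 1.22 CPM, and Tnfsf13 (APRIL) was at most 1.63 CPM and listed at 0 in both HET libraries.

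The list for the CD40 and BAFF pathway held 14 genes, 11 signalling genes and Tnfrsf17, Tnfsf13b and Tnfsf13, and 0 passed adjustment. In KO over WT, 2 of the 14 had an unadjusted p under 0.05, both lower in KO, where 2.19% of all genes tested did. The median log2 fold change of the 14 was -0.13. Map3k14, the NF-kappa-B inducing kinase of the non-canonical pathway, was at 52.0 and 48.5 CPM in WT, 38.6 and 43.5 CPM in HET and 30.04, 44.8, 26.5, 36.8, 39.7 and 34.7 CPM in KO 1 to 6. It was lower in every KO library than in WT, and KO overlapped HET. The log2 fold change was -0.50 ± 0.21 (SE) against WT and -0.36 ± 0.16 (SE) against both controls (edgeR, adjusted p = 0.999 and 0.744), each with an unadjusted p under 0.05. Birc3, an inhibitor of apoptosis that acts in the same pathway, was at 211.6 and 172.0 CPM in WT and between 138.98 and 170.5 CPM in KO, -0.31 ± 0.14 (SE), while HET was at 182.5 and 137.6 CPM. Among 14 further B7 and TNF superfamily genes, of which 13 were tested, Cd27 was lower in KO than in WT, at 7.28 ± 0.57 CPM (SD, n = 2) in WT and 2.99 ± 1.15 CPM (SD, n = 6) in KO, -1.28 ± 0.47 (SE), again without passing adjustment. Cd27 was lower still in HET, at 1.21 and 2.17 CPM, and was at -0.58 ± 0.53 (SE) against both controls. Of 9 SLAM family genes and 5 adhesion genes, 0 had an unadjusted p under 0.05 in KO over WT. Against both controls, Cd48, a SLAM family member, was 0.30 ± 0.13 (SE) higher and Itgal, the alpha chain of LFA-1, fell by 0.43 ± 0.19 (SE) on the log2 scale. Each had an unadjusted p under 0.05, as did 6.3% of all genes tested, and an adjusted p of 0.744 (edgeR). Cd48 was highest in KO 6 and KO 1, at 311.3 and 280.9 CPM, against 177.8 to 225.1 CPM in the controls. Itgal was lowest in KO 1 and KO 6, at 91.9 and 129.0 CPM, against 188.6 to 237.1 CPM in the controls. KO 4 and KO 5 lay within the controls for both genes.

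For the 8 members with a mean of at least 10 CPM, the genes that followed most closely over the 10 libraries were ranked by the SD of the log2 ratio of CPM, among 8579 candidates. For Cd40 they were Hes6, with an SD of 0.06, and Lat2 with 0.08. For Cd86 they were Actr3 and Seh1l, with 0.05 and 0.06, for Cd83 Cnppd1 and Sars2, each with 0.07, and for Icosl Edc3 and Inpp5b, with 0.05 and 0.08. Tnfrsf13b was followed by Btg1 and Pura, each with 0.08, and Tnfrsf13c by Gramd3 and Dda1, with 0.08 and 0.10. Slamf1 with Terf2 and Ube2l6, at 0.13 and 0.14, and Cd274 with Klhl7 and Kansl1l, at 0.30 and 0.34, had looser companions. The median SD over the candidates lay between 0.31 and 0.75. All ratios come from the same 10 libraries and were searched for over all candidates, so they describe these libraries only.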

How the data were processed

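RNA from sorted GC B cells was made into cDNA libraries with a SMART-Seq v4 kit, per the study's methods (the labels name Nextera), and sequenced as paired ends. The authors deposited, for each library, estimated counts and TPM of 64019 transcripts, quantified with Salmon (version 0.9.1 per the submitters' processing notes, which also name DESeq2) against the Gencode vM17 annotation; 45.9% of the count values were not whole (tolerance 1e-06). The deposited annotated and effective transcript lengths were used for length-scaled counts. Counts and TPM were summed by gene identifier, which gave 22380 genes, and symbols served to match the members. Estimated counts were rounded to whole numbers. CPM were computed after TMM scaling. Positions are those of Gencode vM21 on GRCm38, which matched 22349 genes.

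Genes were tested with edgeR 4.0.16 (R 4.3.3) by the quasi-likelihood test after filterByExpr, with Benjamini-Hochberg adjustment and a threshold of 0.1. WT against KO and WT with HET against KO were fitted on their own libraries, and both comparisons with HET in a fit of all 10. The SE is the fold change over the square root of F, and 95% intervals use the total degrees of freedom. The fits were tested on simulated data first. Depth was between 26612431 and 41059082 estimated counts. The counts of a library cover sampling error only, whereas the SE and intervals also hold the spread between mice as estimated in the fit. Alternatives were DESeq2 1.42.0 (and its size factors), other filters, length-scaled counts, limma 3.58.1 on log2(TPM + 1) and log2(TPM + 0.1), a replicate block and leaving out libraries; leaving out KO 1 and KO 6 together was chosen after seeing the data.

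The members and gene lists were chosen with earlier results of these data known, although the rule for the members uses names only. Beside the members, the genes named were Zbtb38, the T cell partners, Tnfrsf17, Tnfsf13b and Tnfsf13, genes of the other pathway lists with an unadjusted p under 0.05 against WT or against both controls, and the 2 closest genes by SD of the log2 CPM ratio. The 3 genes of the T cell list, Bcl6 and Hnrnpll were named after their values were seen. A cell surface marker of the sort and the sums of 2 gene lists are not reported here.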

Additional observations from a re-analysis of the deposited data

Results flagged for a closer look

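Among the 6 KO libraries, 1 library lay far from the other 5 for 4 of the 10 genes, by the gap to its nearest neighbour as a share of the whole range (Dixon's test at 95%). For independent groups, chance flags about 1 in 20, or 0.5 of 10. The 10 genes share the same 6 libraries, so their flags are not independent. The share flagged over all genes was not computed, so the count is not a result about these 10 genes. Cd40 in KO 1 was at 167 CPM, with the next highest KO library at 129.97 CPM. Icosl in KO 6 was at 42.3 CPM, with the next lowest at 87.7 CPM. Cd80 in KO 2 was at 6.24 CPM, with the next highest at 3.31 CPM. Pdcd1lg2 in KO 6 was at 0.18 CPM, with the next lowest at 2.56 CPM. KO 1 and KO 6 are also the 2 libraries with the lowest median correlation with the others, at 0.929 and 0.908.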

How the results depend on the processing

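None of the 10 genes had an adjusted p under 0.1 under any alternative in any of the 4 comparisons. The p of Cd86 in KO over HET was under 0.05 in 19 of 21 fits (adjusted p between 0.153 and 0.921), the exceptions being the replicate block and the fit without HET 1, and in HET over WT in 17 of 21. Cd86 also had p under 0.05 against both controls on TPM (-0.33 with either value added), and Slamf1 in KO over HET without KO 1 and KO 6 (-0.27). Several fold changes changed sign between alternatives, most widely Cd80, from -0.45 to 0.40 in HET over WT. Pdcd1lg2 ran from -0.31 to 0.45 in KO over WT and from -0.54 to 0.18 against both controls. On TPM, the median of all genes moved by -0.12 and -0.17 in KO over WT, by -0.11 and -0.14 against both controls and by -0.11 and -0.14 in KO over HET, with 1 and 0.1 added before the logarithm. On that scale 4 members changed sign in KO over WT (Cd86, Cd274, Pdcd1lg2 and Tnfrsf13b). Cd86 was at -0.15 with either value in KO over WT, and Cd40 at -0.10 against both controls and -0.012 in KO over HET with either value. With the replicate block, Cd40 was at 0.14 in KO over WT, and Slamf1 at 0.29 against WT, 0.15 against both controls and 0.021 against HET. Replicate numbers 3 to 6 occur only in KO, so the block gives each of those libraries a term of its own. Its fold changes of KO over controls therefore rest on KO 1 and KO 2. Without WT 2, Tnfrsf13c was at 0.16 in KO over WT. For the other alternatives, the cause of the sign changes was not tested.

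Over all genes, 1 passed adjustment in each comparison. In KO over WT this was 5 with DESeq2, 3 with limma on log2(TPM + 0.1), 6 with the replicate block, 2 in a fit of all libraries, 2 without KO 1 and KO 6, and 0 with length-scaled counts, with limma on log2(TPM + 1) or at an adjusted p under 0.05 (where 325, 437 and 311 reached an unadjusted p below 0.05), and 0 to 2 without single libraries. Against both controls it was 18 with DESeq2 and 0 with length-scaled counts, limma (either value) and the replicate block (where 840, 930, 905 and 1104 did), and 1 to 2 without single libraries. In KO over HET it was 458 with DESeq2, 2 with no filter, 6 with limma on log2(TPM + 0.1), 4 with the block, 41 without KO 1 and KO 6, and 0 with at least 10 counts in every library or with only the 2 groups (1251 and 1247), and 0 to 5 without single libraries. In HET over WT it was 125 with DESeq2, 5 with limma on log2(TPM + 0.1), 66 with the block, 523 with only the 2 groups, 44 without KO 1 and KO 6, 0 with at least 10 counts (695), and 0 to 16 without single libraries.

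Deviations of same-numbered libraries from their group means had correlations from -0.0126 to 0.101. With 2 libraries each in WT and HET, the deviations within a group mirror each other. Libraries with different numbers were not compared, so this check cannot decide whether the numbers pair the mice. With 2 WT and 2 HET mice, the intervals of Cd80, Cd274 and Pdcd1lg2 exceeded 2-fold in all 4 comparisons.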
